A study of Homo sapiens with 3 samples.

Results

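The nuclear-encoded subunit genes of the mitochondrial respiratory chain and ATP synthase were examined in A549 cells, a human cell line from a lung adenocarcinoma, after 48 h with cordycepin or cordyceps. Members were the protein-coding genes whose present symbols begin with NDUFA, NDUFB, NDUFC, NDUFS or NDUFV and a number, the genes SDHA to SDHD, and the genes whose symbols begin with UQCR, COX4 to COX8 or ATP5. Assembly factors named NDUFAF or SDHAF, antisense and divergent transcripts, and pseudogenes were left out. By this rule 83 of the 22439 named genes on the array were members, with 107 of the 58201 non-control probes. They comprised 36 genes of complex I, 4 of complex II, 8 of complex III, 16 of complex IV and 19 of complex V. The 19 include ATP5IF1, which encodes an inhibitor of complex V. Some subunit genes fall outside the rule by symbol, among them CYC1 of complex III and NDUFAB1 of complex I.

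The 3 conditions were a control with 0.1% DMSO, cordycepin at 60 μg/mL and cordyceps at 100 μg/mL. Cordycepin is an adenosine analog that lacks the 3′ hydroxyl group, and the sample labels name cordyceps without saying which preparation it was. The labels give no DMSO for the treated cells. They give for every culture serum at 10%, penicillin-streptomycin at 1%, zinc sulfate at 16.7 μM, troglitazone at 10 μM and nicotinamide at 10 mM, although the methods name serum and antibiotics alone as additions to the medium. Troglitazone is a PPARγ agonist that is also known to act on mitochondria, and nicotinamide is a precursor of NAD, the electron carrier that complex I reoxidizes.

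RNA of each condition was hybridized to 1 single-colour Agilent array (n = 1), so every value below is a difference between arrays, without replicate error and without a p-value. Both treatments were compared with the same control array, and the 3 arrays lie on 1 slide. The 6 markers set for A549 cells (KRT8, KRT18, CDH1, AKR1B10, AKR1C1 and GPX2) had signals between 5081 and 265000 on the 3 arrays. Of the 4 markers of blood and endothelial cells, 1 (PTPRC) was well above background on each array, with a signal of at most 99.5. In bulk RNA, fewer cells of a type and less RNA per cell cannot be told apart.

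Complexes I to IV pass electrons from NADH and succinate to oxygen, and complexes I, III and IV pump protons across the inner mitochondrial membrane. Complex V, the ATP synthase, lets the protons return and makes ATP. Mitochondrial DNA encodes a small core of these subunits. All the others, including every subunit of complex II, come from nuclear genes, and their messages are translated in the cytosol. The mitochondrially encoded subunits were not analysed here.

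Signals are processed intensities of the scanner software, in arbitrary units and before scaling between arrays. Ratios are differences of log2 signal after the 75th percentile of each array was subtracted, which corresponded to signals of 260.1 for control, 224.3 for cordycepin and 260.2 for cordyceps. A gene was read by its brightest probe. The spread of a single probe's log2 ratio, from the 2 brightest probes of 3356 genes, had a robust SD of 0.25 for cordycepin over control and 0.20 for cordyceps over control. Among the 19 members with more than 1 probe it was 0.09 and 0.13. This spread covers probe error within a pair of arrays and no biological variation.

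Nearly all respiratory chain genes gave a signal in A549 cells. Of the 83 members, 80 were well above background in control and with cordycepin, and 79 with cordyceps. On each array 79 members had a signal over 1000, and no member spot was saturated. Among the members well above background on each array, the median signal was 22540 for control, 20114 for cordycepin and 17879 for cordyceps. The 3 members not well above background on any array were isoforms known from particular tissues: COX4I2 from lung, COX6A2 from heart and skeletal muscle, and COX7B2 from testis. Their signals ranged from 4.82 to 20.7.

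In cordycepin-treated cells the subunit genes lay close to all genes. The median log2 ratio over 80 measured members was -0.11, against -0.05 over all 14600 genes measured on both arrays. The SD over members was 0.28 and that over all genes 0.56. Of the members, 52 of 80 lay below 0, where 54.7% of all genes did. Only COX8C was at least 2-fold higher, and no member was at least 2-fold lower, where 5.95% and 3.57% of the 15917 genes tested were called. At 1.5-fold, 3 members were higher (COX8C, COX6B2 and NDUFA9) and 2 were lower (ATP5MJ and ATP5F1C), against 13.3% and 11.8% of all genes tested. Median scaling gave 1 higher and 7 lower, with a member median of -0.38 and 91.2% of members below 0, beside an all-gene median of -0.32 and 75.8% of genes below 0. With the 75th-percentile scaling, the 5 of 80 members called were a smaller share than the background in both directions. That background includes dimmer genes and ratios given as bounds. Among the 14600 genes measured on both arrays, 1577 were higher and 1640 lower at 1.5-fold. A share over genes of like brightness was not taken. In all, 61 of 80 members lay within 1 SD of the probe spread around 0, and the share of all genes in that range was not counted. The lower and upper quartiles were -0.20 and 0.05 over members, and -0.32 and 0.25 over all genes measured.

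In cordyceps-treated cells the subunit genes lay lower as a group, by a small amount each. The median log2 ratio over 79 measured members was -0.32, a fold of 0.80, against -0.11 over all 13889 genes measured. Of the members, 72 of 79 (91.1%) lay below 0, where 61.4% of all genes did. No member was 2-fold apart from the control in either direction, where 4.19% of 15602 genes tested passed this fold upward and 3.15% downward. At 1.5-fold, 1 member was higher (COX6B2), against 8.3% of all genes, and 10 of 80 tested were lower, which equals the background of 12.5%. Median scaling gave 3 higher and 0 lower. NDUFA2 and ATP5MC1 were called lower under 11 of the 12 alternative settings, and not under median scaling (log2 -0.56 and -0.49). Several of these settings cannot move a bright gene with 1 probe, so this count does not measure how firm the calls are. Changes past these folds were thus no more common than among all genes. Of 79 members, 21 lay within 1 SD of the probe spread around 0, and the share of all genes in that range was not counted. The lower and upper quartiles were -0.45 and -0.17 over members, and -0.37 and 0.16 over all genes measured.

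The position against 0 depended on the scaling. With each array scaled to its median, the member median with cordyceps was -0.05 and that of all genes 0.16. Then 62% of members and 33.3% of all genes lay below 0. The member median minus that of all genes was -0.21. Scaling by 1 value per array cannot change this difference. Quantile normalization can, and gave -0.14. Nearly all members are bright, and bright genes lay slightly lower as a whole. Of 79 members measured on all 3 arrays, 76 were among the 3443 brightest of the 13770 genes so measured. Over those 3443 genes the median was -0.14 with cordyceps, with 67.3% below 0, and that of the members -0.32. With cordycepin the same bright genes had a median of -0.09, and the members among them -0.11. The part of signal strength in the difference was not tested further.

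**Figure D1:**
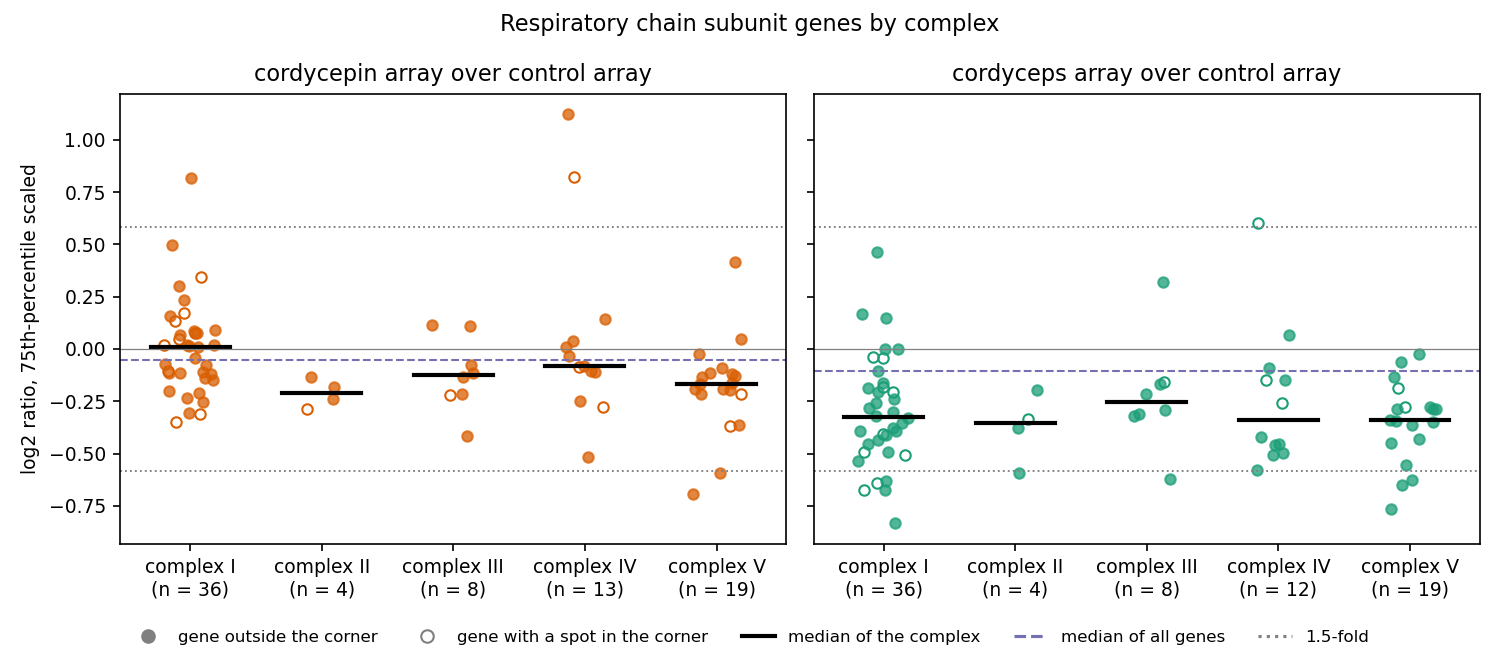
Log2 ratios (y axis, 75th-percentile scaled) of the measured subunit genes in each complex, for the cordycepin array (left) and the cordyceps array (right) over the control array. Each point is a gene, hollow where a spot of its probe lies in the marked corner of the slide, with the complex median as a bar, the all-gene median dashed and 1.5-fold dotted. With cordyceps the 5 complex medians lie between -0.36 and -0.25, below the all-gene median of -0.11.

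All 5 complexes showed the lower position with cordyceps. The medians were -0.33 in complex I (36 genes), -0.36 in complex II (4), -0.25 in complex III (8), -0.34 in complex IV (12 measured) and -0.34 in complex V (19). With cordycepin the complexes lay at 0.01, -0.21, -0.12, -0.08 and -0.17 in the same order. All 19 genes of complex V and all 4 of complex II were below 0 with cordyceps. With cordycepin 17 of the 19 and all 4 were. Of all genes measured, 61.4% lay below 0 with cordyceps and 54.7% with cordycepin. These counts depended on the scaling. Under median scaling 62% of members lay below 0 with cordyceps, and ATP5F1C of complex V lay at 0.21.

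Complex I, the NADH dehydrogenase, has a matrix arm that carries the flavin and the iron-sulfur clusters and a membrane arm that pumps protons. Its 20 membrane-arm genes had a median of -0.41 with cordyceps, and 19 of them were below 0. The 16 matrix-arm genes had a median of -0.22, with 13 below 0. With cordycepin the arms lay at 0.01 and -0.01. The plot of structural parts shows these medians with their ranges.

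**Figure D2:**
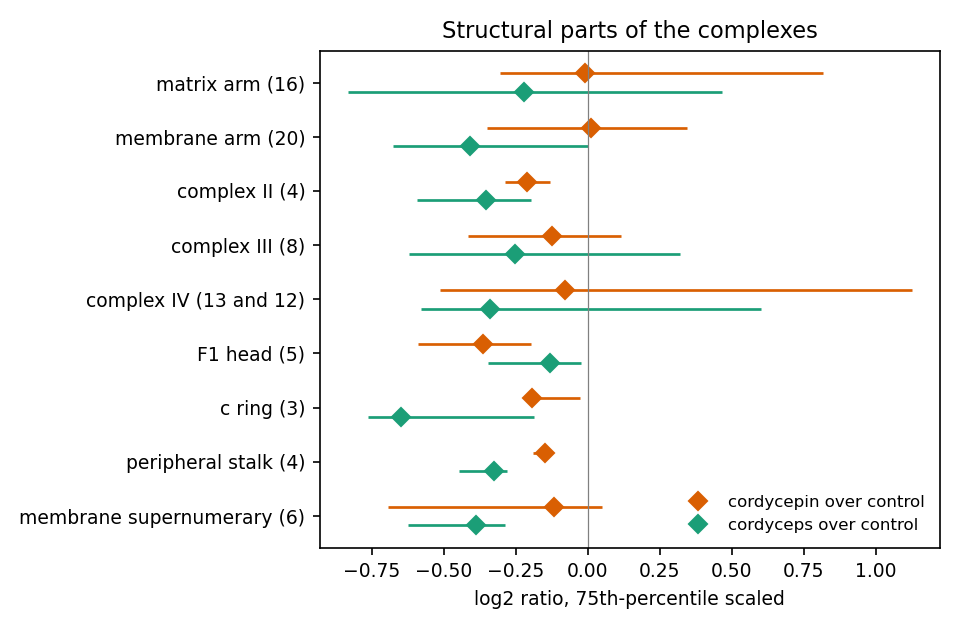
Median (diamond) and lowest to highest log2 ratio (line) of the measured genes in each structural part, with the number of genes in parentheses, for cordycepin and cordyceps over control. With cordyceps the c ring of complex V lies lowest, at -0.65, with 3 genes between -0.76 and -0.19. The membrane arm of complex I follows at -0.41, close to the small membrane subunits of complex V (membrane supernumerary) at -0.39. The F1 head lies lowest with cordycepin, at -0.36.

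Complex I, with 36 of the 83 members, held 5 of the 10 genes that were at least 1.5-fold lower with cordyceps. Of all genes tested, 12.5% were lower at this fold. NDUFA2, an accessory subunit of the matrix arm, had signals of 24303 in control, 21254 with cordycepin and 13650 with cordyceps. After scaling, the cordyceps array was 1.78-fold lower (log2 -0.83), the lowest ratio of any member, while the cordycepin array lay at 0.02. The other 4 are small accessory subunits of the membrane arm. NDUFB2 had signals of 40791, 35671 and 25583 in the same order, with log2 ratios of 0.02 for cordycepin and -0.67 for cordyceps. NDUFB3 had 23118, 24535 and 14921, with 0.30 and -0.63. NDUFA1, which is encoded on the X chromosome, had 54027, 43231 and 33845, with -0.11 and -0.68. Its probe lies in the marked corner of the slide. In each of these genes the cordyceps array was the lowest of the 3.

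NDUFS5, another membrane-arm subunit, was printed 10 times on each array and so carries its own measure of spot error. Its mean signals were 42404 in control, 46346 with cordycepin and 27239 with cordyceps. The log2 ratio with cordycepin was 0.34, and all 8 spot pairs usable on both arrays lay between 0.29 and 0.43. The log2 ratio with cordyceps was -0.64, and the 6 usable pairs lay between -0.68 and -0.53. Before scaling, the control spots (39804 to 45294) overlapped the cordycepin spots (44522 to 47716), and the cordyceps spots (26872 to 27583) lay below both. Spots of 1 array share the same labelled RNA. Under median scaling the log2 ratios were 0.08 and -0.37. The 3 spots in the corner of the slide gave a mean ratio of -0.65 with cordyceps, and those outside it gave -0.57. Cordyceps lay 1.97-fold below cordycepin for this gene.

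NDUFS6, a zinc-binding subunit of the matrix arm, was also printed 10 times. Its signals were 11247, 10914 and 7913 in control, cordycepin and cordyceps. All 10 spot pairs were above 0 with cordycepin (0.11 to 0.25) and all 10 below 0 with cordyceps (-0.60 to -0.44). Its mean ratios of 0.17 and -0.51 did not reach 1.5-fold.

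NDUFA9 ran the other way. This matrix-arm subunit lies near the ubiquinone site. Its signals were 1239 in control, 1880 with cordycepin and 1710 with cordyceps, so both treated arrays were above the control. It was 1.76-fold higher with cordycepin (log2 0.81), and the log2 ratio with cordyceps was 0.46. It has 1 probe. NDUFA5, also in the matrix arm, had signals of 2724, 3316 and 3020 and log2 ratios of 0.50 and 0.15. Of the subunits that hold redox centres, NDUFV1, which binds NADH and flavin, had log2 ratios of -0.15 and -0.26. Among the iron-sulfur subunits, NDUFS1 had -0.04 and lay at the control level with cordyceps, and NDUFV2 had 0.13 and -0.04. NDUFS7 had -0.20 and -0.11, and NDUFS8 had -0.21 and -0.32. NDUFV3, a further subunit at the NADH-binding end, had 0.07 and 0.17. NDUFB9, named as the member of complex I with the highest control signal, had signals of 64963, 58749 and 65049 and log2 ratios of 0.07 and 0.00. NDUFA10 had the lowest ratio of complex I with cordycepin, at -0.35. The brightest probes of NDUFA10 and NDUFV2 lie in the marked corner of the slide.

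Complex II, succinate dehydrogenase, is also an enzyme of the tricarboxylic acid cycle. SDHA, the flavoprotein, had signals of 20701 in control, 16278 with cordycepin and 15945 with cordyceps, with log2 ratios of -0.13 and -0.38. Its 4 probes lay between -0.22 and -0.07 with cordycepin and between -0.38 and -0.27 with cordyceps. SDHB, the iron-sulfur subunit, had 5870, 4455 and 5118, with -0.18 and -0.20. SDHD, a membrane anchor, had 2228, 1574 and 1769, with -0.29 and -0.33, and its brightest probe lies in the marked corner of the slide. SDHC, the other anchor, had 7991, 5842 and 5303, with -0.24 and -0.59, so it was 1.51-fold lower with cordyceps. The 3 probes of SDHC disagreed. The dimmer probes, with control signals of 543 and 334, gave 0.42 and -1.11 with cordyceps, and 0.47 and -0.52 with cordycepin. The call on SDHC therefore rests on the choice of probe. SDHA has pseudogenes of high similarity, and their share in its signal was not tested.

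Complex III, the cytochrome bc1 complex, hands electrons from ubiquinol to cytochrome c. UQCR10, one of its small subunits, had signals of 35407, 28981 and 23019 in control, cordycepin and cordyceps. It was 1.54-fold lower with cordyceps (log2 -0.62) and lay at -0.08 with cordycepin. Its second probe, for another transcript, gave -0.62 and -0.04. The remaining and dim probe, with a control signal of 258.5, gave -0.08 with cordyceps and -0.90 with cordycepin. UQCRFS1, the Rieske iron-sulfur protein, had 64449, 41673 and 51543, with -0.42 for cordycepin and -0.32 for cordyceps. UQCRC1, a core protein, was the only complex III gene above 0 with cordyceps, at 0.32, with signals of 10469, 9723 and 13055. UQCRC2, the other core protein, was printed 10 times. Its spot pairs lay between -0.26 and -0.17 with cordycepin and between -0.20 and -0.03 with cordyceps, all 10 below 0 in each. UQCRQ, named for the highest control signal of the complex, had 103246, 96286 and 83294, with 0.11 and -0.31. CYC1, a subunit of this complex outside the rule, had log2 ratios of -0.07 with cordycepin and -0.34 with cordyceps.

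Complex IV, cytochrome c oxidase, reduces oxygen to water. Several of its nuclear subunits exist as a broadly used and a tissue-restricted isoform. COX4I1, the broadly used form of the largest nuclear subunit, had signals of 30933, 22009 and 27912, with log2 ratios of -0.28 for cordycepin and -0.15 for cordyceps, beside COX4I2 not well above background. The probes of COX4I1 and COX4I2 lie in the marked corner of the slide. COX6A1 had 149928, 130230 and 135249, with 0.01 and -0.15, beside COX6A2 not well above background. COX7B had 45620, 33125 and 30550, with -0.25 and -0.58, and COX7B2 was not well above background. COX7A2 had 82870, 73236 and 58277, with 0.04 and -0.51. No probe was matched to its muscle isoform COX7A1, which was not analysed here.

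COX6B2 and COX8C, both known as testis isoforms, were the members of complex IV at least 1.5-fold higher with cordycepin. COX6B2 had signals of 4365 in control, 6655 with cordycepin and 6617 with cordyceps. It was 1.77-fold higher with cordycepin (log2 0.82) and 1.52-fold higher with cordyceps (log2 0.60). That probe lies in the marked corner of the slide. The other COX6B2 probe lies outside it, has signals of 47.6, 57.3 and 49.8, and gave log2 ratios of 0.48 and 0.07. The ubiquitous counterpart COX6B1 had 81255, 64793 and 57533, with -0.11 and -0.50. COX8C was 2.18-fold higher with cordycepin (log2 1.12), from a signal of 29.4 to 55.3, and at 11.3 it was not well above background with cordyceps. These signals are near the lowest level called well above background, which was 18.7 for control and 21.8 for cordycepin. With another background correction, normexp, the log2 ratio of COX8C was 0.47. COX8A, the ubiquitous counterpart, had 91972, 77559 and 67037, with -0.03 and -0.46.

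COX7C, printed 10 times, had signals of 91601, 73524 and 68532. Its 9 usable spot pairs lay between -0.47 and -0.29 with cordyceps and between -0.23 and 0.01 with cordycepin. COX6C had a log2 ratio of 0.14 with cordycepin and -0.46 with cordyceps. COX7A2L, which helps to join complexes III and IV into supercomplexes, had the opposite order of arrays. Its signals were 17015 in control, 10265 with cordycepin and 17851 with cordyceps, with log2 ratios of -0.52 and 0.07. Its second probe gave -0.68 and -0.07.

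NDUFA4, once counted with complex I and now with complex IV, carries the present symbol COXFA4 and so is outside the rule. Its log2 ratios were -0.13 with cordycepin and -0.52 with cordyceps. COXFA4L2 was not well above background on any array. COXFA4L3, a paralog named here after its values were seen, had signals of 8592 in control, 21850 with cordycepin and 14230 with cordyceps. It was 2.95-fold higher with cordycepin and 1.66-fold higher with cordyceps, so both treated arrays were above the control. It is read by 1 probe.

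**Figure D3:**
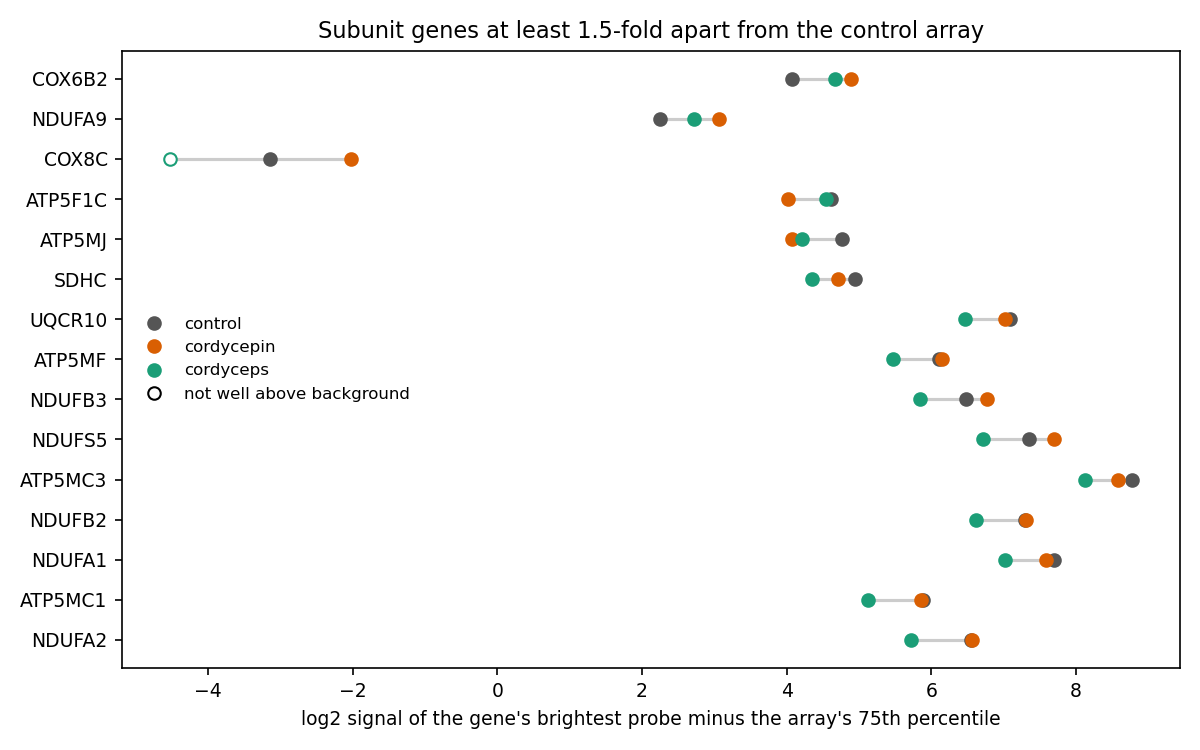
Log2 signal of the brightest probe minus the 75th percentile of the array (x axis) for the 15 subunit genes at least 1.5-fold apart from control with either treatment, 1 point per array, hollow where the probe was not well above background. In 10 genes the cordyceps point lies at least 1.5-fold below the control point, and COX6B2 and NDUFA9 have both treated points above it.

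Complex V couples a catalytic F1 head, through a turning stalk, to a membrane rotor of c subunits, and a peripheral stalk holds the head still. All 5 genes of the F1 head were below 0 with cordycepin, with a median of -0.36, where 54.7% of all genes measured were below 0. ATP5F1C, the gamma subunit that turns inside the head, had signals of 6343, 3630 and 6079 in control, cordycepin and cordyceps. It was 1.51-fold lower with cordycepin (log2 -0.59) and lay at -0.06 with cordyceps. ATP5F1A and ATP5F1B, the alpha and beta subunits, had -0.37 and -0.20 with cordycepin, and -0.28 and -0.02 with cordyceps. The ATP5F1A probe lies in the marked corner of the slide. ATP5F1D, the delta subunit, had -0.36 and -0.13. ATP5F1E, the epsilon subunit, had signals of 133964, 99617 and 105248, with -0.21 and -0.35. The F1 median with cordyceps was -0.13, so this part lay close to the all-gene median on that array.

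The c ring showed the other pattern. ATP5MC1, ATP5MC2 and ATP5MC3 are separate genes whose precursors mature to the same c subunit. ATP5MC1 had signals of 15356, 12998 and 9044, with log2 ratios of -0.03 for cordycepin and -0.76 for cordyceps. ATP5MC3 had 113395, 85507 and 72338, with -0.19 and -0.65. These genes were thus 1.70-fold and 1.57-fold lower with cordyceps. ATP5MC2 had 80189, 59529 and 70522, with -0.22 and -0.19, and did not reach 1.5-fold with either treatment. The probe of ATP5MC2 lies in the marked corner of the slide and those of the other two lie outside it, and the part of the corner in this difference was not tested.

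The proximal promoters of ATP5MC1 and ATP5MC2 are shown because these genes encode the same mature protein and differed in the cordyceps ratio, and those of ATP5PF and ATP5F1C because they hold motifs long known from respiratory genes. Each sequence is the 150 bases before an annotated start from RefSeq (GRCh38.p14), 5′ to 3′ on the strand of the gene, with motif matches in capitals. The windows are chr17:48892637-48892786 (plus strand) for ATP5MC1, chr12:53676084-53676233 (minus strand) for ATP5MC2, chr21:25735055-25735204 (minus strand) for ATP5PF and chr10:7788027-7788176 (plus strand) for ATP5F1C. ATP5MC2 has further annotated starts, and the one shown is that with a match. ATP5PF also has another annotated start, whose window is not shown.
ATP5MC1: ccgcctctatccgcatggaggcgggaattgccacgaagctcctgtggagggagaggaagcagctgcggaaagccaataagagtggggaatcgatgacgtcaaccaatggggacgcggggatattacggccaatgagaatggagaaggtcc
ATP5MC2: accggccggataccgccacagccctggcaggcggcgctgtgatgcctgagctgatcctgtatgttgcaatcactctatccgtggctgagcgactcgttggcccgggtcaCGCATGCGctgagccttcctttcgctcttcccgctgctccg
ATP5PF: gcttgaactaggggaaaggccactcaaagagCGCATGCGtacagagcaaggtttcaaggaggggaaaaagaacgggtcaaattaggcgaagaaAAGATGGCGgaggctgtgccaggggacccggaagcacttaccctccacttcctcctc
ATP5F1C: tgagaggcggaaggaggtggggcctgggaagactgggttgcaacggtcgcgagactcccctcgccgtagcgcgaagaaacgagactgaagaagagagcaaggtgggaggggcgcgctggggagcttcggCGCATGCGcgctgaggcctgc

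The 3 motifs were searched on both strands in the 300-base windows of the RefSeq table, which run from 250 bases before a start to 50 after it. They were CGCATGCG, a palindromic core of the NRF1 site, CCGGAAGT, an ETS site of the kind that GABP binds, and AAGATGGCG, a YY1 site. No motif overlaps another in the sequences shown. The capitals mark the NRF1 core 41 to 34 bases before the start in ATP5MC2, 21 to 14 bases before it in ATP5F1C and 119 to 112 bases before it in ATP5PF. In ATP5PF they also mark the YY1 motif at 57 to 49 bases. No match was found in the ATP5MC1 window shown. For 69 of the 83 members the table held 82 windows. The NRF1 core was in 13.4% of them, against 2.02% of all 35116 windows, the ETS motif in 14.6% against 4.14%, and the YY1 motif in 12.2% against 1.75%. At least 1 motif was found for 28 members, and all 3 for 1 member, ATP5PF, which encodes factor 6 of the peripheral stalk. The 3 motifs of ATP5PF do not share 1 window. The ETS motif lies 8 to 1 bases before its other annotated start, in the window chr21:25734905-25735054, which is not shown. The log2 ratios of ATP5PF were -0.13 with cordycepin and -0.45 with cordyceps.

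Members with and without these letters lay at similar ratios. With cordyceps the median was -0.30 over 11 genes with the NRF1 core and -0.32 over 55 without it. It was -0.30 over 12 with the ETS motif and -0.32 over 54 without, and -0.21 over 9 with the YY1 motif and -0.32 over 57 without. With cordycepin these medians lay between -0.12 and -0.07 in all 6 sets.

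The rest of complex V lay below 0 in most genes. The 4 genes of the peripheral stalk lay between -0.19 and -0.13 with cordycepin and between -0.45 and -0.28 with cordyceps. Of the small membrane subunits, ATP5MJ had signals of 7093, 3781 and 4823 and was the lowest member with cordycepin, 1.62-fold lower (log2 -0.69). Its log2 ratio with cordyceps was -0.56. ATP5MF, the f subunit, had 17826, 15882 and 11566, with 0.05 and -0.62, so it was 1.54-fold lower with cordyceps. Its second probe gave 0.08 and -0.50. ATP5MG, the g subunit, and its near-identical copy ATP5MGL had -0.12 and -0.16 with cordycepin and -0.29 and -0.34 with cordyceps, and the share of each in the other's signal was not tested. ATP5IF1, the protein that blocks ATP hydrolysis by the F1 head, had 21822, 25061 and 17879, with 0.41 and -0.29. Its second probe gave 0.36 and -0.47.

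Cordyceps and cordycepin were also compared directly, array against array, at doses that differ in nature and amount. The labels do not say how much cordycepin the cordyceps held. The median over 79 members was -0.23 for cordyceps over cordycepin, against -0.02 over all 13802 genes measured. Of the members, 61 of 79 lay below 0, where 52% of all genes did. At 1.5-fold, 10 of 80 members were lower with cordyceps (12.5%), where 16.9% of 15482 genes were, and none was higher, where 12.7% were. These values depended on the scaling, in settings chosen after the data were seen. Under median scaling the member median was 0.30 and that of all genes 0.51, with 15 members higher and 0 lower at 1.5-fold. Without scaling the medians were -0.02 and 0.19. With the 75th-percentile scaling, the lower members included NDUFS5 (-0.98), NDUFB3 (-0.93), NDUFA2 (-0.85), ATP5MC1 (-0.74), ATP5IF1 (-0.70), NDUFB2 (-0.69), NDUFS6 (-0.68), ATP5MF (-0.67) and COX6C (-0.60). The remaining one, COX8C, was at least 1.86-fold lower, as a bound. The highest members were COX7A2L (0.58) and ATP5F1C (0.53), which did not reach 1.5-fold. The F1 head had a median of 0.17, the c ring of -0.46 and the membrane arm of complex I of -0.37.

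The further probes of 19 members were read apart from the brightest ones. Over these 24 probes the median was -0.30 with cordyceps, and 19 were below 0. With cordycepin it was -0.13, and 16 were below 0. Of all genes measured, 61.4% lay below 0 with cordyceps and 54.7% with cordycepin. The 16 further probes with a control signal of 1000 or more had a median of -0.33 with cordyceps, with 14 below 0. With cordycepin their median was -0.06, with 10 below 0. The same cells and arrays gave the further and the brightest probes. Of the 19 genes with more than 1 probe, the 2 brightest probes agreed within 0.2 in 13 with cordycepin and in 12 with cordyceps. The genes whose probes differed by 1 or more on the log2 scale were NDUFC2, UQCRB and SDHC, in each case through dim probes. The dim NDUFC2 probe had signals of 173, 57.8 and 308.2, with -1.37 for cordycepin and 0.83 for cordyceps, where the bright probe gave -0.12 and -0.54. The dim UQCRB probe, for another transcript, had 168.1, 36.1 and 91.9, with -2.01 and -0.87, where the bright probe gave -0.13 and -0.17. Among brighter probes, those of NDUFA12 and COX5A also differed by more than 0.2. The second NDUFA12 probe had signals of 3754, 4531 and 4926, with 0.49 and 0.39, where the brightest probe gave 0.08 and -0.35. The second COX5A probe had 20875, 19946 and 20926, with 0.15 and 0.00, where the brightest, in the marked corner, gave -0.09 and -0.26.

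**Figure D4:**
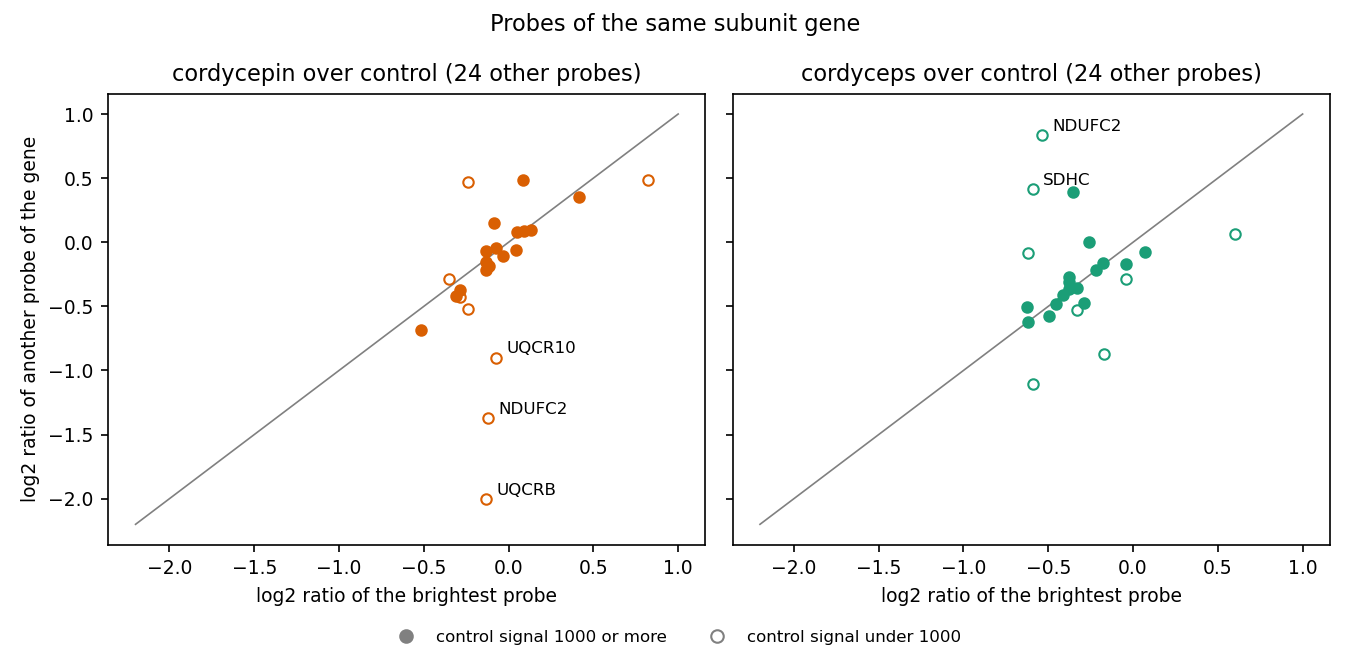
Log2 ratio of each further probe of a subunit gene (y axis) against that of the gene's brightest probe (x axis), with the line of equality, for cordycepin (left) and cordyceps (right) over control. Hollow points have a control signal under 1000, and the named points are hollow. A filled NDUFA12 point with cordyceps lies at 0.39 where the brightest probe gave -0.35.

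A corner of the slide with high row and column numbers (rows past 240 of 384 and columns past 82 of 164) was marked. All spots of 15 members' brightest probes lay in it, and some of the spots of 3 others. The 15 were ATP5F1A, ATP5MC2, COX4I1, COX4I2, COX5A, COX6B2, COX7B2, NDUFA1, NDUFA10, NDUFB5, NDUFB6, NDUFB7, NDUFB10, NDUFV2 and SDHD. The 3 were NDUFS5, NDUFS6 and UQCRC2. With cordyceps the members outside the corner had a median of -0.33 over 63 genes, and those wholly inside had -0.21 over 13. With cordycepin the medians were -0.11 and -0.11. On the cordyceps array 3 of the 26 member spots in the corner had an outlying local background, and on each of the other arrays 0 had. COX6B2 and NDUFA1 were the genes called at 1.5-fold that lay wholly inside. With the corner left out of members and scaling, the member median with cordyceps was -0.21 and that of all genes 0.01. Its part in the values of COX6B2 and NDUFA1 was not tested.

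**Figure D5:**
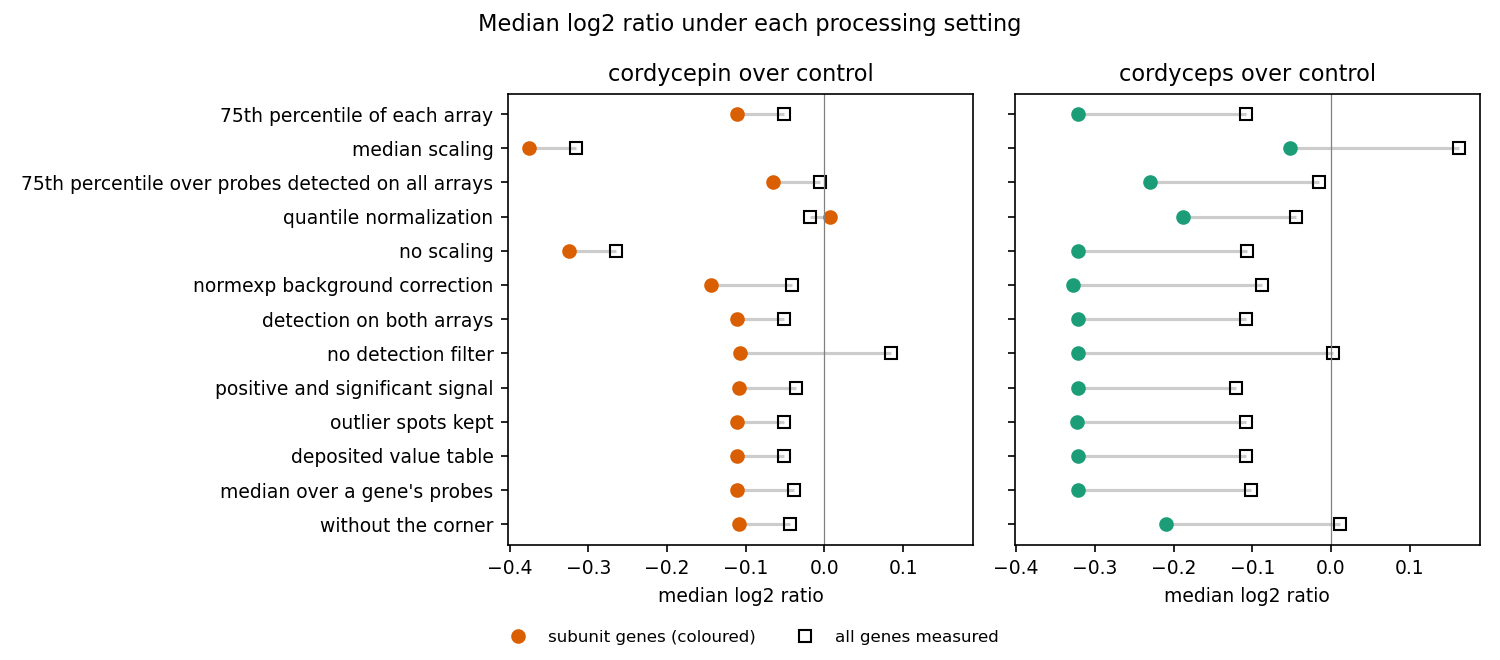
Median log2 ratio (x axis) of the subunit genes (coloured points) and of all genes measured (open squares) under the reported scaling (top line) and each alternative, for cordycepin (left) and cordyceps (right) over control. With cordyceps the subunit genes lie below all genes on every line, a difference that scaling by 1 value per array cannot change, with values between -0.32 and -0.14, while with cordycepin quantile normalization gives a difference of 0.03.

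Genes that serve the respiratory chain and fall outside the rule for members were described by 4 lists. None of them held a gene that was 2-fold apart from the control with either treatment. Of 47 assembly factors measured, 0 were higher and 2 lower at 1.5-fold with cordycepin, and 0 were higher and 3 lower with cordyceps, with medians of -0.14 and -0.10. Of all genes tested, 13.3% were higher and 11.8% lower at this fold with cordycepin, and 8.3% and 12.5% with cordyceps, so the shares called in each of the 4 lists lay below these. The 3 lower with cordyceps serve complex IV. PET100, needed for its assembly, had signals of 12080, 10650 and 6196 and was 1.95-fold lower with cordyceps (log2 -0.96). COX17, a copper chaperone, had -0.65 and COX16 had -0.62.

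The list of 19 mitochondrial gene expression and biogenesis factors had medians of -0.02 with cordycepin and -0.03 with cordyceps. PPARGC1A, the coactivator PGC-1α that drives many respiratory genes, had signals of 1662, 822.3 and 2287. It was 1.74-fold lower with cordycepin (log2 -0.80) and lay at 0.46 with cordyceps. GABPB1, a subunit of GABP, had 515, 617.9 and 930.5, with 0.48 and 0.85, and was the 1 gene of the list higher at 1.5-fold with cordyceps. TFAM, which packs and transcribes mitochondrial DNA, had 0.01 and -0.36.

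The 19 genes of the tricarboxylic acid cycle and the electron carriers had medians of -0.10 and -0.07. This list also holds NDUFAB1, a complex I subunit outside the rule, with log2 ratios of 0.14 and -0.35. OGDH was the 1 gene higher at 1.5-fold with cordycepin (log2 0.98), at dim signals of 44.1 in control and 75.1 with cordycepin. ETFDH, which passes electrons from fatty acid oxidation to ubiquinone, was the 1 lower with cordyceps (log2 -0.60). The 77 mitochondrial ribosomal protein genes had medians of -0.12 with each treatment. At 1.5-fold, 0 were higher and 2 lower with cordycepin (MRPS27 at -0.88 and MRPL45 at -0.65), and 2 were higher (MRPL1 at 0.83 and MRPL35 at 0.65) and 2 lower (MRPL23 and MRPL51, both at -0.78) with cordyceps. The list medians with cordyceps, from -0.12 to -0.03, lay near the all-gene median of -0.11, and that of the subunit genes was -0.32. The difference between these lists was not tested.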

How the data were processed

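RNA of A549 cells in 3 conditions was hybridized to 1 Agilent array each, so depth is limited by the number of arrays. The authors deposited scanner intensities, background-subtracted within each array by Feature Extraction 11.5.1.1 per the file headers and not scaled between arrays, and a value table of the same intensities. The methods name Cy3 and Cy5 and GeneSpring normalization, whereas the files hold 1 channel per condition. Outlier spots were left out, log2 signals of a probe's spots were averaged, and the 75th percentile of each array was subtracted. A probe counted as well above background with at least 50% of its spots so marked. Ratios were called at 1.5-fold and 2-fold, as a bound where 1 array was not well above background. Genes were named from probe accessions through RefSeq (GRCh38.p14, names alone). The array design uses hg19. The grouping of the genes, the members and the lists were chosen with earlier results of these data known. Named were members past a fold threshold, the 5 highest and 5 lowest of each comparison, the highest control signal of each complex, isoform pairs, the complex II genes, members not well above background and those with disagreeing probes, and others for their role. Steps were tested on simulated data, with changes larger than the fold thresholds and noise smaller than the probe spread. That test does not measure the error of the calls made here. Normexp used limma 3.58.1 in R 4.3.3 with an offset of 50, and all else Python 3.11.15, numpy 2.4.6 and pandas 2.3.3.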

Additional observations from a re-analysis of the deposited data

How the results depend on the processing

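With 1 array per condition, no replicate was left out and no test was run. No paired analysis was possible because each condition has 1 array. Of 153 recomputed counts and medians, 125 stayed within 1.5 times the reported count or within the probe spread of the reported median, and of 512 ratios of named genes 465 did. None of the called ratios changed sign.

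Scaling moved most. Under median scaling the member median was -0.38 with cordycepin and -0.052 with cordyceps. The counts were then 0 at 2-fold higher, 1 at 1.5-fold higher and 7 at 1.5-fold lower with cordycepin, and 3 at 1.5-fold higher and 0 at 1.5-fold lower with cordyceps. The number at 1.5-fold lower was 1 with cordycepin and 2 with cordyceps when the percentile was taken over probes detected on all arrays, and 1 and 3 under quantile normalization. Without scaling, 0 were 2-fold higher and 4 were 1.5-fold lower with cordycepin. Scaling by 1 value per array cannot change the member median minus that of all genes. Quantile normalization moved it from -0.21 to -0.14 with cordyceps and from -0.06 to 0.03 with cordycepin. For cordyceps over cordycepin, in settings chosen after seeing the data, the member median turned from -0.23 to 0.30 under median scaling, with 15 higher and 0 lower at 1.5-fold. It was -0.019 without scaling, with 2 higher and 4 lower, and quantile normalization gave 1 higher (COX7A2L).

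Normexp left 0 members 2-fold higher with cordycepin. Without a detection filter, and with positive and significant signals, 1 member (COX8C) was 2-fold lower with cordyceps. With the median over a gene's probes, 1 member (UQCRB) was 2-fold lower and 5 were 1.5-fold lower with cordycepin, and 0 were 1.5-fold higher with cordyceps. Without the corner of the slide, 0 were 1.5-fold higher and 2 were 1.5-fold lower with cordyceps, and the log2 ratio of COX6B2, then read by its other probe, was 0.49 with cordycepin and 0.18 with cordyceps. The causes were not tested. Detection on both arrays, outlier spots kept and the deposited value table moved none of these counts or medians.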
